A study of Mus musculus with 8 samples.

Results

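The genes described here are the potassium channel genes of the mouse retina, taken as the symbols that begin with Kcn and go on with a subfamily letter code and a number. The deposited table held 85 such genes among 17500, after *Kcnj10* and *Kcnj13* were set aside, and 81 of them had enough counts to be tested, as did 16797 genes in all. The deposited description named potassium for 78 of the 85, a Kv channel for 4, and a K+ channel for *Kcns1* and *Kcns2*, while *Kcng2* had no description. The symbols take in the pore-forming subunits of the voltage-gated (Kcna to Kcnd, Kcnh, Kcnq), inwardly rectifying (Kcnj) and leak (Kcnk) channels. Pore-forming subunits of the calcium- or sodium-activated channels (Kcnma, Kcnn, Kcnt) are included too. They also take in modulatory subunits that conduct only in a channel shared with another subunit (Kcnf, Kcng, Kcns, Kcnv). Auxiliary proteins that form no pore (Kcnab, Kcne, Kcnip, Kcnmb) complete the set. Below, the Kcnmb genes are grouped as Kcnm with Kcnma, Kcnn and Kcnt, and the group of auxiliary genes is Kcnab, Kcne and Kcnip.

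Potassium channels let potassium ions leave the cell along their gradient, which sets the resting potential, ends action potentials and shapes the response of neurons to light-driven input. In the inner segment of photoreceptors, channels that hold the Kv8.2 subunit (*Kcnv2*) carry the outward current that balances the dark current through the cyclic nucleotide-gated channels of the outer segment. Ganglion cells and amacrine cells fire action potentials with Kv1, Kv3 and Kv7 channels, and glia clear potassium with inward rectifiers.

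The study removed the RNA-binding splicing regulator Rbfox2 in adult mice and asked how the retinal transcriptome differed. Whole retinas of 8 C57BL/6J mice aged 6 months were sequenced, 1 library per mouse: 4 mice labelled Rbfox2 KD (M893, M901, M902, M909) and 4 labelled control (M833, M894, M896, M898). By the study's methods the Rbfox2 KD mice, written Rbfox2-/- there, carried Rbfox2 fl/fl and a Cre that is activated by tamoxifen and not restricted to the retina, and the controls were Rbfox2 fl/+. The labels state tamoxifen for 4 months for every mouse, and whether the controls carried Cre was not given in the sources used here. By the methods, however, the Rbfox2 KD mice were dosed as adults on several consecutive days only. Their retinas were taken 4 months after the deletion was induced. The methods name tamoxifen or vehicle by gavage and do not state which the controls received. The deletion was thus confined neither to the retina nor to 1 cell type, and the libraries hold RNA of every retinal cell.

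*Rbfox2* itself, the targeted gene, had 144 CPM (counts scaled to library size) in M833, 149.8 in M894, 157 in M896 and 148 in M898, the controls, and 53.9 CPM (M893), 58.9 CPM (M901), 53.6 CPM (M902) and 59.4 CPM (M909) in the Rbfox2 KD retinas. This order of mice is kept below. Every Rbfox2 KD retina was below every control, and 37.7% of the control level remained (log2 fold change -1.41, SE 0.0456, edgeR adjusted p = 5.51e-07). Library totals lay between 160630226 and 211283591 counts, so that 3 counts, taken as the smallest detectable amount, were worth at most 0.0189 CPM, which covers counting error only. M901 and M902 stood apart on the first principal component (50% of the variance of log2(CPM + 1)) and were the only libraries with high *Xist* (277506 and 275967 counts, against 312 to 426), and M909 stood apart on the second (18.7%). The Y-linked *Ddx3y* was at 0.316 and 0.221 CPM in M901 and M902, against 60.5 to 69.5 CPM in the other 6 mice. The Y-linked *Kdm5d*, *Eif2s3y* and *Uty* were likewise low in these 2 mice only. Both are Rbfox2 KD, so the groups were unbalanced in these genes, and the labels do not give sex. In M901 and M902 the summed markers of ciliary and iris epithelium were at 4.69 and 4.55 CPM, against 22.5 to 48.8 CPM in the other 6 mice. The summed level of 4 ganglion cell markers (*Rbpms*, *Slc17a6*, *Pou4f1*, *Nefl*) was 381 CPM in control M833, against 612 to 639 CPM in the other controls and 495 to 657 CPM in the Rbfox2 KD retinas. Markers of rods, cones, bipolar, horizontal, amacrine and Müller glia cells were detected in every library.

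A few genes held much of the summed level. Levels between genes are compared as FPKM, the authors' value per transcript length. The summed level of the 85 genes was 1404 ± 19.4 FPKM (SD, n = 4) in Rbfox2 KD retinas and 1383 ± 24.8 FPKM (SD, n = 4) in controls. *Kcnj14*, *Kcnab2* and *Kcnv2* made up 35.6% of it. Of the 85 genes, 27 had a mean above 10 FPKM, 27 lay between 1 and 10, and 31 were under 1.

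*Kcnj14* (chr7:45816460-45824782 of GRCm38), the inward rectifier Kir2.4, had 213, 195, 211 and 209 FPKM in controls and 202, 201, 211 and 206 FPKM in Rbfox2 KD retinas, and the groups overlapped throughout. *Kcnab2* (chr4:152390742-152477871), the beta2 subunit that joins Kv1 channels, had 138 to 151 FPKM in controls and 151 to 164 FPKM in Rbfox2 KD retinas, where the ranges touched. *Kcnv2* (chr19:27322588-27337179), the Kv8.2 subunit, had 122 to 131 FPKM in controls and 137 to 161 FPKM in Rbfox2 KD retinas. In the order of levels, the range over 8 mice of *Kcnj14* lay above that of *Kcnab2*, while *Kcnab2* and *Kcnv2* overlapped, and both lay above *Kcnc1*.

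Other abundant genes had means between 27.4 and 49.3 FPKM. Among them were *Kcnc1*, a Kv3 subunit of fast-spiking neurons, *Kcna5* (Kv1.5), *Kcnj9*, a subunit of G protein-gated inward rectifiers, *Kcnh2*, the ERG channel, and *Kcnma1*, the pore of the large-conductance calcium-activated (BK) channel. *Kcnc1* lay at 46.1 to 51.8 FPKM over the 8 mice, above the range of *Kcna5* (36.0 to 42.6), which overlapped *Kcnj9* (33.8 to 39.8). *Kcnh2* (28.9 to 32.9 FPKM) overlapped *Kcnma1* (22.0 to 31.5), which overlapped *Kcnk1* (18.7 to 23.0). The order depends on the transcript length that was used. With the full exon length of the GENCODE M21 annotation in place of the authors' length, *Kcnj14*, *Kcnab2* and *Kcnv2* held 37.7% of the sum. *Kcnc1* then went from place 5 to 10, below *Kcna5*, *Kcnj9* and *Kcnh2*, and *Kcnma1* from place 10 to 24.

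**Figure D1:**
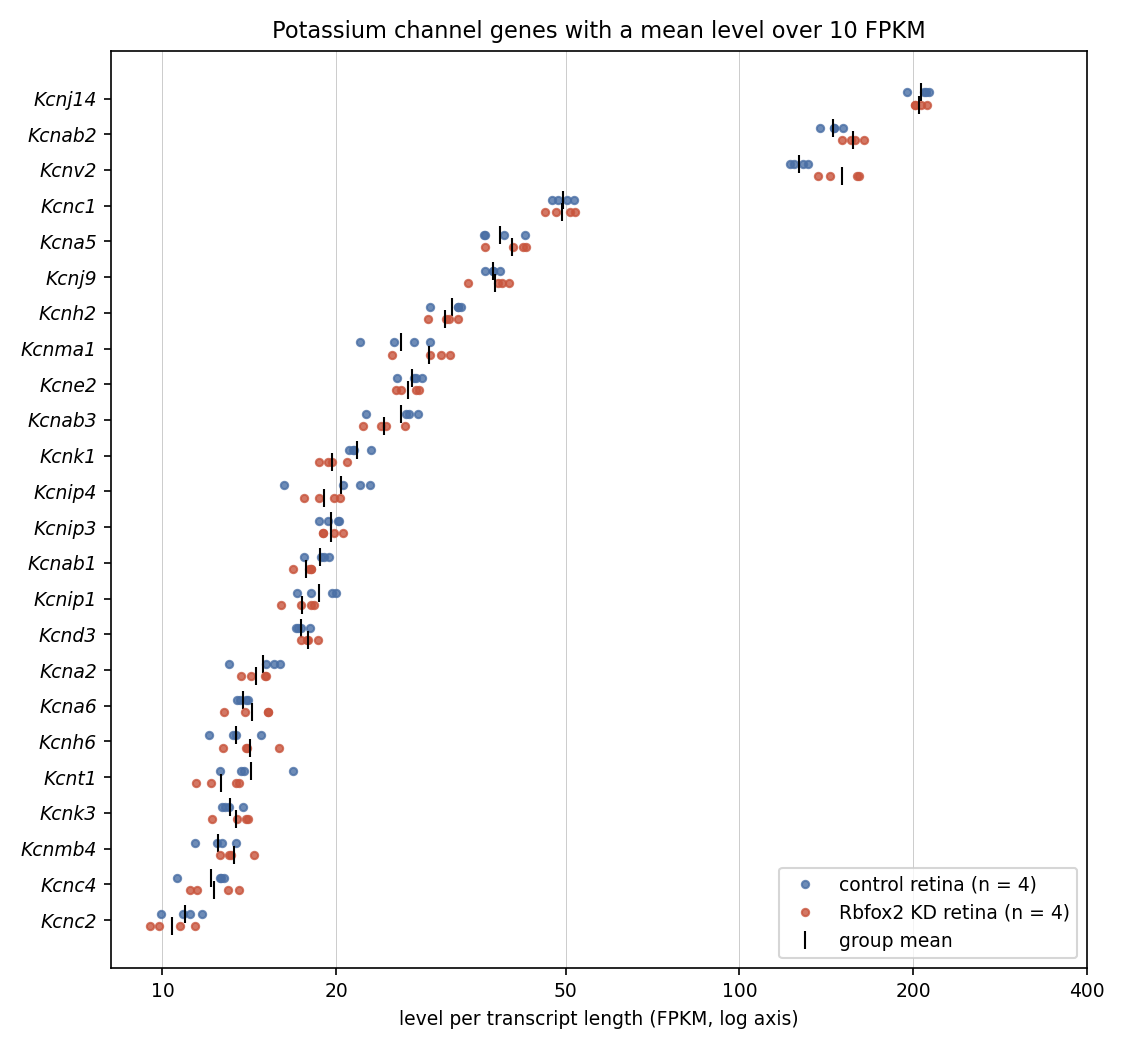
Level in FPKM (log axis) of 24 potassium channel genes with a mean above 10 FPKM, 1 point per mouse, with ticks at the means of 4 control and 4 Rbfox2 KD retinas. The first 3 genes lie between 122 and 213 FPKM and no other gene drawn exceeds 51.8 FPKM, and within a gene the groups mostly overlap.

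At the low end, 4 genes did not pass the count filter: *Kcnk7*, *Kcne3*, *Kcna10* and *Kcnj15*. Genes under 1 FPKM included *Kcnq1* and *Kcne4*, known from epithelia and muscle, and *Kcnj8*, the vascular pore subunit of ATP-sensitive channels. Levels of the genes above 1 FPKM were steady within a group, with a median coefficient of variation of 6.53% over the controls and 7.17% over the Rbfox2 KD retinas.

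By subfamily, the summed levels lay close in both groups of mice. Kcna to Kcnd genes (17) held 34.5 ± 2.67% of the sum in Rbfox2 KD retinas and 35.4 ± 1.19% in controls (SD, n = 4). Kcnj genes (12, led by *Kcnj14*) held 19.3% and 19.7%. The smaller groups were Kcnm, Kcnn and Kcnt (10 genes, 4.85% and 4.71%), Kcnh (8 genes, 4.11% and 4.25%), Kcnk (12 genes, 3.09% and 3.27%) and Kcnq (5 genes, 2.07% and 2.18%), each value first for Rbfox2 KD. The modulatory and auxiliary genes with *Kcnu1* (21 in all) held 32.2% and 30.5%. Within these, the 10 modulatory genes, of which *Kcnv2* is by far the most abundant, summed to 144, 136, 138 and 143 FPKM in controls and 158, 173, 174 and 149 FPKM in Rbfox2 KD retinas. All 4 Rbfox2 KD sums lay above the controls, M909 by the least. The auxiliary genes, without Kcnmb, summed to 287 ± 10.6 FPKM in Rbfox2 KD retinas and 281 ± 11.9 FPKM in controls (SD, n = 4).

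**Figure D2:**
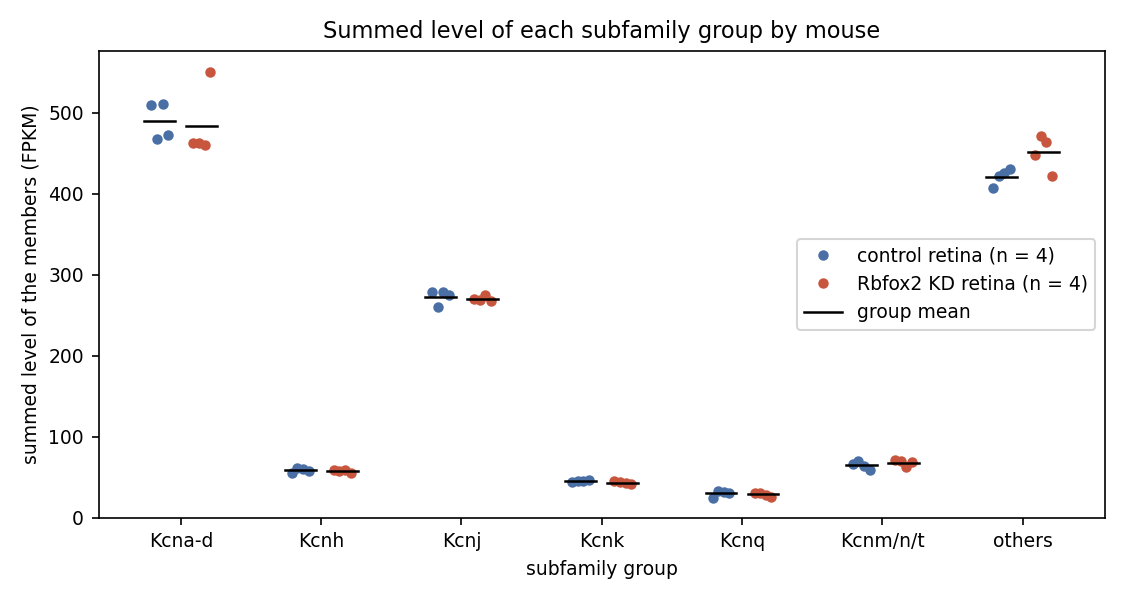
Summed FPKM of the members of each subfamily group (horizontal axis), 1 point per mouse, lines at the means of 4 control and 4 Rbfox2 KD retinas. The groups overlap in every subfamily, and the Kcna-d sum of 550.2 FPKM in M909 stands apart from the 461 to 463 FPKM of the other Rbfox2 KD retinas.

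No potassium channel gene passed the adjusted threshold. In the quasi-likelihood test of edgeR, with p-values adjusted after Benjamini and Hochberg over 16797 genes, 0 of 81 had an adjusted p under 0.05, where 0.0655% of all genes tested did. DESeq2 called 3 of the 81 (*Kcnn1*, *Kcnv2*, *Kcnab2*), edgeR's likelihood ratio test 2 (*Kcnn1*, *Kcnv2*) and limma-voom 0. DESeq2 called 460 and the likelihood ratio test 164 of all genes tested, against 11 with the quasi-likelihood test and with limma-voom. Without M902, the quasi-likelihood test called *Kcnn1*.

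At an unadjusted p under 0.05 there were 11 of 81 (13.6%), against 13.3% of all genes tested. Of these, 3 were higher in Rbfox2 KD retinas (3.7%, against 6.42% of all genes) and 8 were lower (9.88%, against 6.87%). The 4 Rbfox2 KD values lay entirely above or below the 4 control values in 5 genes (6.17%), against 7.03% of all genes tested. In total, and in groups that did not overlap, the shares among the potassium channel genes were close to those of all genes. The count of lower genes moved with several mice. It was 5 without any 1 of M894, M896, M898, M893 or M901, and 4 without M902. Without both M901 and M902 it was 1 (1.19%, against 2.46% of all genes in that setting), and with high *Xist* as a term it was 0 (against 2.69%). The higher genes were 3 in either of the last 2 settings (3.57%, against 3.55%, and 3.7%, against 3.94%).

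The log2 fold change of Rbfox2 KD over control was within 0.1 of 0 in 46 of 81 genes, and the change was larger than 1.5-fold in 2, *Kcne4* and *Kcnh3* (-0.62, named after its value was seen), both under 0.1 FPKM. A value below 0 was found in 52 genes (64.2%, against 49.3% of all genes tested), and the median was -0.037 against 0.0016 over all genes. The median stayed below 0 in every alternative run, from -0.066 to -0.013. By subfamily the medians were -0.22 for Kcnq, -0.064 for Kcnh, -0.061 for the modulatory and auxiliary genes, -0.051 for Kcnm, Kcnn and Kcnt, -0.017 for Kcnk, -0.013 for Kcnj and 0.0023 for Kcna to Kcnd. Signs turned in some alternatives for Kcna to Kcnd, with upper-quartile normalization (-0.0043) among others, for Kcnk, with limma-voom (0.039) among others, and for Kcnj without M902 (0.00045). The Kcnq median stayed below 0 but ranged from -0.34 without M833 to -0.087 without M902, was -0.33 without M896, -0.10 without M898 and -0.10 without both M901 and M902, and with 1 surrogate variable was -0.076, no longer the lowest.

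**Figure D3:**
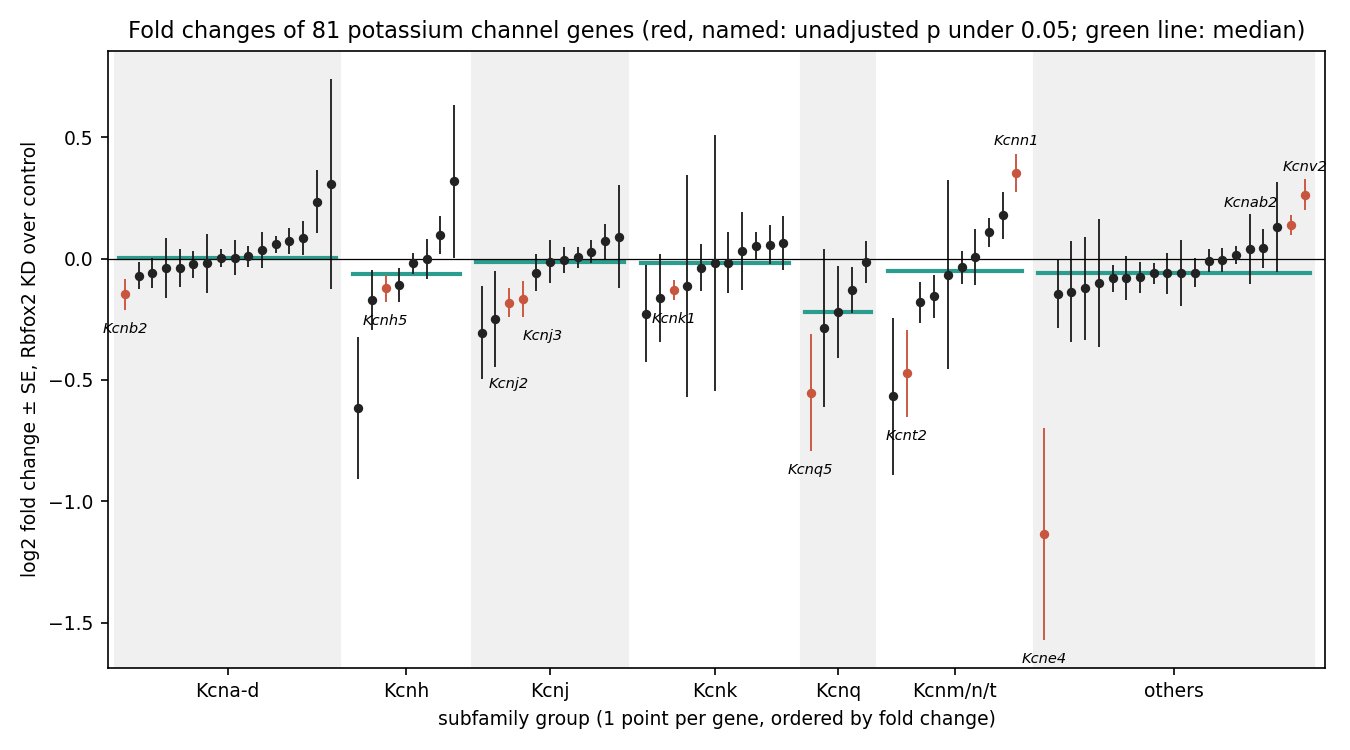
Log2 fold change (Rbfox2 KD over control) with its SE for the 81 genes tested, by subfamily group, with a line at each group's median; the 11 genes with an unadjusted p under 0.05 are named. Points cluster around 0 and the Kcnq median is the lowest at -0.22.

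Among the voltage-gated subunits, *Kcnv2* had 676, 614, 625 and 644 CPM in controls and 723, 821, 829 and 699 CPM in Rbfox2 KD retinas. All 4 Rbfox2 KD values were above all controls, M901 and M902 by the most. The log2 fold change was 0.26 (SE 0.0625, edgeR adjusted p = 0.176), and without M901 and M902 it was 0.15. Adjusted p ran from 0.0043 with DESeq2 to 0.737 without these 2 mice.

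Photoreceptor markers differed in the direction of *Kcnv2*. The summed level of the 3 cone markers was 648 to 757 CPM in Rbfox2 KD retinas and 598 to 608 CPM in controls, with log2 fold changes of 0.26 for *Opn1sw*, 0.20 for *Arr3* and -0.23 for *Opn1mw*. The rod markers *Gnat1* and *Pde6b* had log2 fold changes of 0.19 and 0.13. Whether a higher share of photoreceptor RNA has a part in the *Kcnv2* value was not tested, and in bulk retina more cells of a type and more RNA per cell cannot be told apart.

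*Kcnb2*, the Kv2.2 subunit, had 13.1, 11.5, 12.8 and 12.1 CPM in controls and 10.6, 11.98, 10.7 and 11.4 CPM in Rbfox2 KD retinas, with a log2 fold change of -0.15 (adjusted p = 0.364 from the same edgeR test). *Kcnh5*, an ether-a-go-go channel, had 32.3, 33.7, 33.0 and 29.7 CPM and 29.6, 31.8, 27.8 and 28.9 CPM, and a log2 fold change of -0.12 (adjusted p = 0.375, edgeR). Both sets of values overlapped between the groups. The neuronal subunits *Kcna1*, *Kcna2*, *Kcnc1*, *Kcnc2*, *Kcnd2*, *Kcng4* and *Kcnh1* had an unadjusted p above 0.05, and so did *Kcna5* and *Kcnh2*.

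The 5 Kcnq genes, pore subunits of the Kv7 channels, all had log2 fold changes below 0. *Kcnq5* had 1.46, 2.13, 1.46 and 2.91 CPM in controls and 1.59, 1.39, 0.977 and 1.46 CPM in Rbfox2 KD retinas. Its log2 fold change of -0.55 (SE 0.241, adjusted p = 0.368, edgeR) leaned on control M898, without which it was -0.31, and it was -0.25 with a surrogate variable. The 4 melanocyte markers summed to 14.7, 137, 27.2 and 302 CPM in controls, where M898 and then M894 were highest as for *Kcnq5*, and to 61.2, 7.77, 11.3 and 26.9 CPM in Rbfox2 KD retinas, and their part in this value was not tested. *Kcnq3* had 5.55 to 6.74 CPM in controls and 5.01 to 6.41 CPM in Rbfox2 KD retinas.

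Control M833, the library with the lowest ganglion cell markers, had the lowest value of the 4 controls in 35 of the 81 genes (43.2%, against 29.2% of all genes tested). Among them were *Kcna1* (56.6 CPM, against 61.6 to 64.2 in the other controls), *Kcna2* (153, against 172 to 183) and *Kcnd2* (13.1, against 17.3 to 19.4). M909, lowest of the Rbfox2 KD retinas in ganglion cell markers, was lowest of them in 34 genes (42.0%, against 31.1% of all genes). M902, with more of these markers than M909 (583 against 495 CPM), was lowest in 29 genes (35.8%, against 23.3%). The part of ganglion cell content in these values was not tested.

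*Kcnj2* (chr11:111066164-111076821), the strong inward rectifier Kir2.1, had 14.2, 12.4, 14.4 and 13.2 CPM in controls and 12.1, 12.2, 11.4 and 12.1 CPM in Rbfox2 KD retinas. All 4 Rbfox2 KD values were lower, by a narrow margin, with a log2 fold change of -0.18 (SE 0.0595, adjusted p = 0.268, edgeR) that stayed between -0.22 and -0.15 in all alternatives. *Kcnj3* (Kir3.1, G protein-gated) had 10.1, 10.9, 11.3 and 10.8 CPM and 10.1, 10.4, 8.48 and 9.30 CPM, a log2 fold change of -0.17 (adjusted p = 0.371, edgeR). Of its exon sequence, 31.1% is shared with *Gm26794* on the opposite strand, and since use of strand in the counting was not given in the sources used here, reads of the 2 cannot be told apart. *Kcnj9*, *Kcnj12* and *Kcnj14* had log2 fold changes of 0.029, -0.0055 and 0.0051.

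For comparison, *Kcnj10*, the main Kir channel of Müller glia, had a log2 fold change of 0.0056 and *Kcnj13* one of -0.56 (adjusted p = 0.455, edgeR). The 3 Müller glia markers summed to 3620 to 3805 CPM in Rbfox2 KD retinas and 3887 to 4228 CPM in controls, with log2 fold changes of -0.17 for *Glul*, -0.040 for *Slc1a3* and 0.053 for *Rlbp1*. *Kcnj8* had 0.947, 1.43, 1.31 and 1.25 CPM in controls and 0.847, 1.03, 0.794 and 1.31 CPM in Rbfox2 KD retinas, and the groups overlapped. The 5 pericyte and smooth muscle markers summed to 44.0 to 63.2 CPM in controls and 35.6 to 47.2 CPM in Rbfox2 KD retinas, and their part in the *Kcnj8* values was not tested.

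*Kcnk1* (chr8:125995170-126030685), the TWIK-1 leak channel and the most abundant of its subfamily, had 50.2, 48.0, 48.9 and 52.2 CPM in controls and 47.8, 45.9, 43.6 and 45.0 CPM in Rbfox2 KD retinas. The 2 groups were separated by a gap smaller than the spread within either. Its log2 fold change was -0.13 (SE 0.0427, adjusted p = 0.268, edgeR). *Kcnk3*, the acid-sensitive leak channel TASK-1, had 47.8 to 53.3 CPM in controls and 46.7 to 54.3 CPM in Rbfox2 KD retinas.

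In the calcium- and sodium-activated group, *Kcnn1* (chr8:70842049-70863258), the SK1 subunit of small-conductance calcium-activated channels, had the lowest p of all 81 genes. It had 18.3, 16.6, 16.9 and 16.0 CPM in controls and 22.5, 22.9, 18.2 and 23.0 CPM in Rbfox2 KD retinas. M902 lay just below the highest control, M833, and the other 3 Rbfox2 KD values were above all controls. The log2 fold change was 0.35 (SE 0.0797, adjusted p = 0.156, edgeR) and it was 0.32 to 0.43 in all alternatives. Adjusted p ran from 0.0037 with DESeq2 to 0.417, and without M902 it was 0.047 (edgeR, quasi-likelihood).

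*Kcnt2*, a sodium-activated channel, had 0.519, 0.469, 0.564 and 0.536 CPM in controls and 0.375, 0.311, 0.466 and 0.354 CPM in Rbfox2 KD retinas, from 60 to 108 counts per library. All 4 Rbfox2 KD values were below all controls, M902 barely so, and the log2 fold change was -0.47 (SE 0.18, adjusted p = 0.318, edgeR). *Kcnma1* had 147, 134, 124 and 108 CPM in controls and 144, 159, 126 and 152 CPM in Rbfox2 KD retinas, and the groups overlapped.

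Of the auxiliary subunits, *Kcnab2* had 498, 532, 514 and 510.2 CPM in controls and 553, 593, 573 and 541 CPM in Rbfox2 KD retinas. All 4 Rbfox2 KD values were above all controls, M909 by the least. The log2 fold change was 0.14 (SE 0.0408, adjusted p = 0.239, edgeR), and it was 0.088 without M901 and M902. Adjusted p ran from 0.043 with DESeq2 to 0.879 without these 2 mice.

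*Kcne4*, an inhibitory beta subunit, had 26 to 38 counts per control library and 3 to 25 counts per Rbfox2 KD library. In CPM these were 0.125, 0.181, 0.157 and 0.215 in controls and 0.085, 0.0674, 0.0189 and 0.13 in Rbfox2 KD retinas, where M909 overlapped the controls and M902 was at the smallest detectable amount. The log2 fold change of -1.13 (SE 0.437, adjusted p = 0.322, edgeR) was -0.64 without M901 and M902 and -1.53 without M909. The summed pericyte and smooth muscle markers given above were also lower in M901 and M902 (38.3 and 35.6 CPM), and their part in this value was not tested. *Kcnip3*, a calcium-binding partner of Kv4 channels, had 52.2 to 55.1 CPM in controls and 52.6 to 56.2 CPM in Rbfox2 KD retinas.

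**Figure D4:**
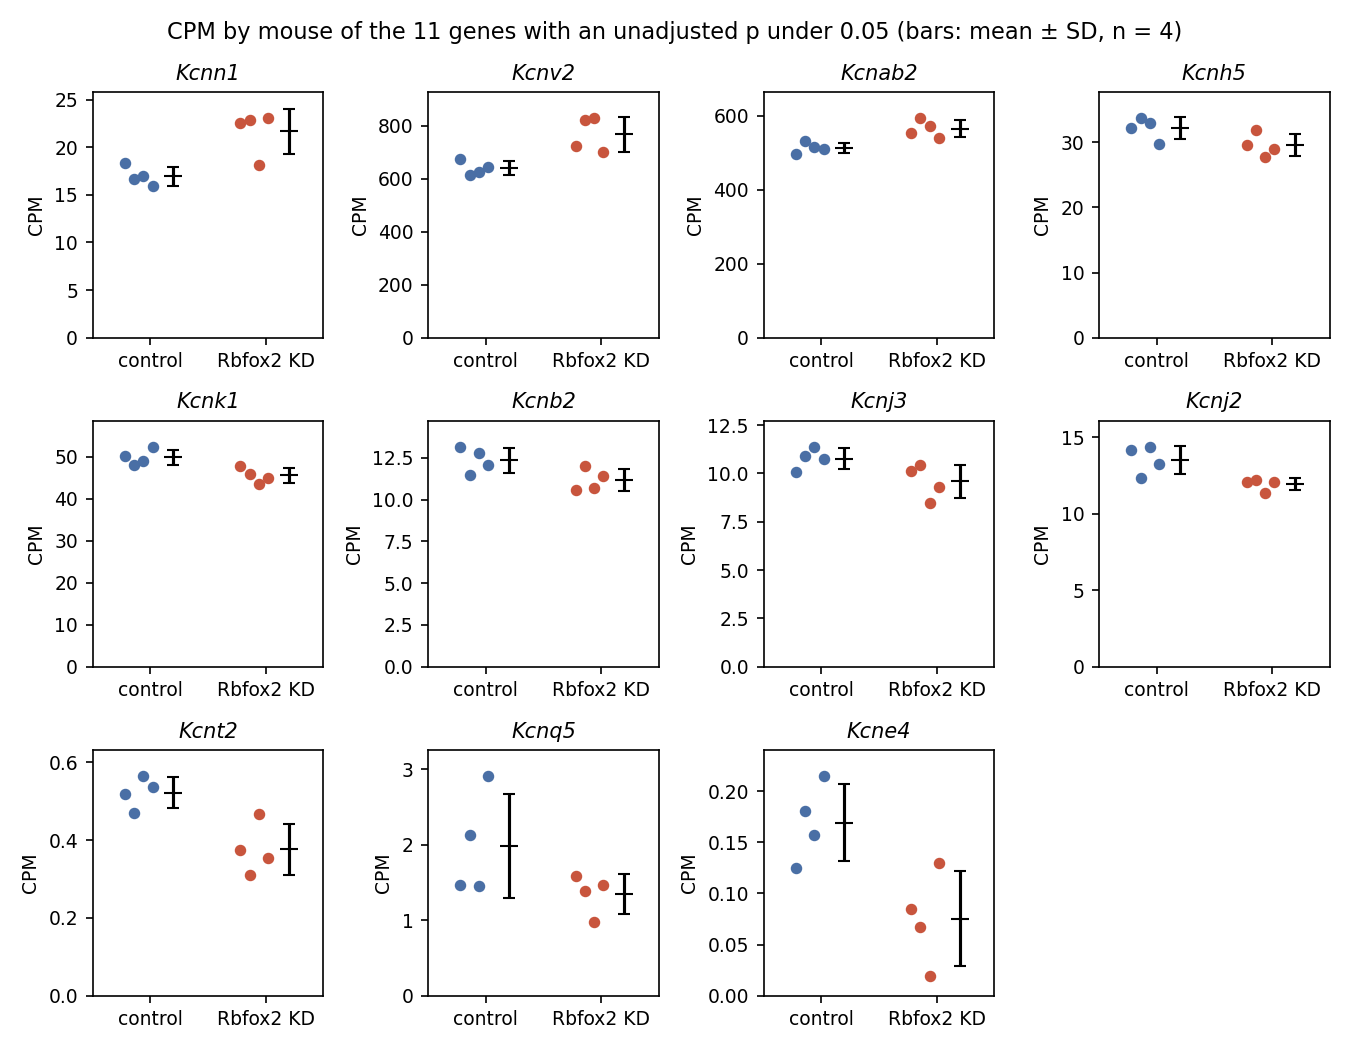
CPM from 0 in each mouse for the 11 genes with an unadjusted p under 0.05, in 4 control and 4 Rbfox2 KD retinas, with bars for the mean and SD. *Kcnv2* and *Kcnab2* lie wholly above the controls, *Kcnk1*, *Kcnj2* and *Kcnt2* wholly below, and the other 6 overlap.

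Rbfox proteins bind the RNA element UGCAUG, within introns beside regulated exons and also in 3′ untranslated regions (UTRs), so the 3′ UTRs of the genes were searched for TGCATG on the sense strand. One transcript per gene was taken from GENCODE M21. The element was present in 45 of the 81 genes tested (55.6%), against 4786 of 14884 genes with a 3′ UTR (32.2%). The potassium channel genes had longer 3′ UTRs, with a median of 1471 bases against 958, and held 0.658 elements per kilobase against 0.361. Within the first 500 bases of 3′ UTRs at least that long, 20 of 64 (31.2%) held it, against 14.5% of 10256 genes.

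Of the 11 genes with an unadjusted p under 0.05, 8 held the element (72.7%, against 55.6% of the 81 tested). These 11 had longer 3′ UTRs, with a median of 2291 bases against 1471. Per kilobase they held 0.659 elements, against 0.658 for the 81. The 3 without the element were *Kcnv2*, *Kcnt2* and *Kcne4*. Shown here are the sites of the 4 genes with a single copy, which include 2 higher and 2 lower genes, read along the transcript from 5′ to 3′ with the element in capitals.
Kcnn1: cagccgcactgcTGCATGtgcaagcacctg
Kcnab2: tgggataaatccTGCATGgatgttgatgcc
Kcnj2: agacataggtaaTGCATGgcatctcttcct
Kcnk1: agtgtcctggctTGCATGtgcctatccaaa
These lie on GRCm38 at chr8:70842628-70842657 (minus strand), chr4:152391963-152391992 (minus), chr11:111075893-111075922 (plus) and chr8:126030134-126030163 (plus). In contrast *Kcnb2*, with a 3′ UTR of 12121 bases, held 10 copies and had a log2 fold change of -0.15. A match is a run of letters and not a measured binding site, and the counts per gene hold no exon or isoform level, so splicing of these genes was not measured here.

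Proteins that join, cluster or anchor potassium channels, and related channels, were taken as a list of 31 genes, of which 29 were tested. By the same edgeR test 0 had an adjusted p under 0.05, and at an unadjusted p under 0.05 there were 4 higher and 3 lower genes (24.1%, against 13.3% of all genes tested), with a median log2 fold change of 0.0036. DESeq2 called 1, *Dlg4*, and the likelihood ratio test and limma-voom 0. The scaffold *Dlg4* (PSD-95), which clusters Kv1 channels, had 739, 722, 664 and 622 CPM in controls and 749, 773, 803 and 830.4 CPM in Rbfox2 KD retinas. All Rbfox2 KD values were above all controls, with a log2 fold change of 0.20 (adjusted p = 0.239, edgeR). Its relatives had log2 fold changes of 0.16 (*Dlg1*) and -0.12 (*Dlg3*), and the Kv1-associated *Adam22* and *Adam23* of -0.11 and -0.16.

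The cyclic nucleotide-gated channels of photoreceptors, whose dark current the Kv8.2 channels balance, had log2 fold changes of 0.016 for the rod subunit *Cnga1* and 0.12 for *Cngb1*, and 0.14 for the cone subunit *Cnga3* and 0.094 for *Cngb3*. Of these, *Cngb1* and *Cnga3* had an unadjusted p under 0.05, with adjusted p of 0.363 and 0.287 (edgeR), and *Cnga3* was above the controls in all 4 Rbfox2 KD retinas. The HCN channels given here had log2 fold changes of -0.043 (*Hcn2*), 0.070 (*Hcn3*) and 0.086 (*Hcn4*), none at an unadjusted p under 0.05.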

How the data were processed

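Retinal poly(A) libraries (Nugen Universal Plus mRNA-seq) of 8 mice were analysed, each a separate animal. The authors aligned reads to mm10 with STAR and counted uniquely mapped reads per gene with HTSeq, and the raw counts were deposited together with FPKM, which the authors scaled by gene length. Deposited log2 fold changes, p-values and a library-adjusted signal of the authors were not used.

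Counts entered edgeR 4.0.16 (R 4.3.3), with its filterByExpr, TMM factors and quasi-likelihood test and no covariates, with Benjamini-Hochberg adjustment over all 16797 genes. CPM use the TMM-scaled library size. The SE is the size of the log2 fold change over the square root of F. The procedure was tested on simulated data. Compared with this were DESeq2 1.42.0, the likelihood ratio test, limma-voom 3.58.1, upper-quartile normalization, no filter, high *Xist* or 1 surrogate variable (sva 3.50.0) as a term, both high-*Xist* libraries left out, and each mouse left out.

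Named genes had an unadjusted p under 0.05 or groups that did not overlap, or were the 10 most abundant, the most abundant of each subfamily, or known from the retina; some that fall under this rule are not reported here. Members and lists were chosen with earlier results of these data known. Positions and sequences are from GENCODE M21 (GRCm38), which placed 84 genes on the deposited chromosome, *Kcng2* having none deposited.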

Additional observations from a re-analysis of the deposited data

Results flagged for a closer look

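In 72 groups of 4 values examined (28 named genes, the subfamily sums and the total, in both groups of mice), 4 had 1 mouse far from the other 3, by a gap to its neighbour that, divided by the whole range, was above Dixon's critical value. Chance alone flags about 1 in 20 groups, or 3.6 of 72.

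Of these, 2 concerned M909 among the Rbfox2 KD retinas. The Kcna-d sum was at 550.2 FPKM, against 461 to 463 FPKM in the other 3. *Kcnj9* was at 111 CPM, against 127 to 129 CPM. In Rbfox2 KD mouse M902, *Kcnn1* was at 18.2 CPM, against 22.5 to 23.0 CPM. In control M833, *Kcnh2* was at 124 CPM, against 135 to 137 CPM.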

How the results depend on the processing

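The quasi-likelihood count of 0 potassium channel genes at an adjusted p under 0.05 became 3 with DESeq2 and 2 with edgeR's likelihood ratio test, and was 0 to 1 with each mouse left out. The 3 higher genes at an unadjusted p under 0.05 were 3 to 5 with each mouse left out, 5 of them without M833 or M909, and 2 with 1 surrogate variable. The 8 lower genes were 4 to 9 with each mouse left out (4 without M902 and 5 without any 1 of M894, M896, M898, M893 or M901), 5 with the likelihood ratio test, 0 with high *Xist* as a term, 2 with 1 surrogate variable and 1 without M901 and M902. Leaving mice out leaves fewer samples, and the cause was not tested otherwise. Over all genes the share of lower genes fell too, from 6.87% to 2.69% with high *Xist* as a term, 2.58% with 1 surrogate variable and 2.46% without M901 and M902. The share held by *Kcnj14*, *Kcnab2* and *Kcnv2* moved from 35.6% to 37.7% with the annotation's exon lengths. None of the 11 genes at an unadjusted p under 0.05 changed sign in any of the 16 alternatives. Of the 17 genes named for their level or known role alone, whose log2 fold changes lay between -0.31 and 0.18, 10 changed sign in at least 1 alternative and 0 had an adjusted p under 0.05 in any. *Rbfox2* fell in all, by 1.38 to 1.43 on the log2 scale. No paired analysis was possible because the mouse numbers are not shared between groups. *Kcne4* rests on 3 to 38 counts per library.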
